A study of Mus musculus with 6 samples.

Results

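Type B intercalated cells were 626 of the 22154 single mouse kidney cells in the deposited data, or 2.83%. They were taken as all cells to which the authors' annotation gives the class name BIC, in all 6 libraries. The kidneys came from wild-type C57BL/6J mice (labelled strain, C57BL/6) aged 16 weeks. All groups ate a gel diet with 104 µmol sodium per kcal. For 1 week, 3 samples received furosemide in it, at 70 mg per kg body weight, and 3 received vehicle only. Furosemide, a loop diuretic, blocks salt uptake by NKCC2 in the thick ascending limb (TAL) and so sends more salt to the segments where type B cells lie. By the annotation, vehicle samples are libraries 1, 3 and 5, and furosemide samples are libraries 2, 4 and 6. The labels do not say whether a sample was 1 animal or several, so the p-values here measure only the spread between these samples.

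Type B intercalated cells are scattered among principal cells and type A intercalated cells in the connecting tubule and cortical collecting duct. They secrete bicarbonate into the tubule and take up chloride through pendrin, an apical anion exchanger encoded by Slc26a4. A vacuolar proton pump powers this exchange, and a second exchanger, AE4, encoded by Slc4a9, lies in the basolateral membrane. Type A cells work the other way round, with the pump on the apical side and the exchanger AE1, encoded by Slc4a1, on the basolateral side. The balance of both types is known for its part in acid-base and chloride regulation.

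Libraries held 3051 to 4439 cells and 4819988 to 7635509 counts. Per library there were 91 to 135 type B cells, whose counts summed to 153945 to 216038 over the 456 genes of the panel. The median type B cell held 1540 counts with vehicle and 1679.5 with furosemide. Between libraries, 196 cell barcodes occurred more than once, and 6 type B cells carried such a barcode. All levels are given as CPM, a gene's counts scaled to the total of the panel's counts, so a level is a share of this panel and not of the whole transcriptome.

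The cells carried the markers of their label. All 4 of Slc26a4, Insrr, Slc4a9 and Spink8 were counted in 622 of the 626 cells, and the other 4 cells had 3 of them. Slc26a4 was at 50830 ± 2635 plain CPM in type B cells (SD over 6 libraries) and lay between 46626 and 53308 CPM in single libraries. The class with the next highest Slc26a4 was AIC, the authors' type A class, at 5781 ± 3855 CPM, followed by OMCD principal at 4922 ± 2050 CPM, and these 2 overlapped. Insrr, an orphan receptor tyrosine kinase known as a sensor of extracellular alkali, was at 10990 ± 1416 CPM against 1563 ± 507 CPM in OMCD principal, the next class. The class drew on these genes, so the levels describe it and no test was made of them.

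**Figure D1:**
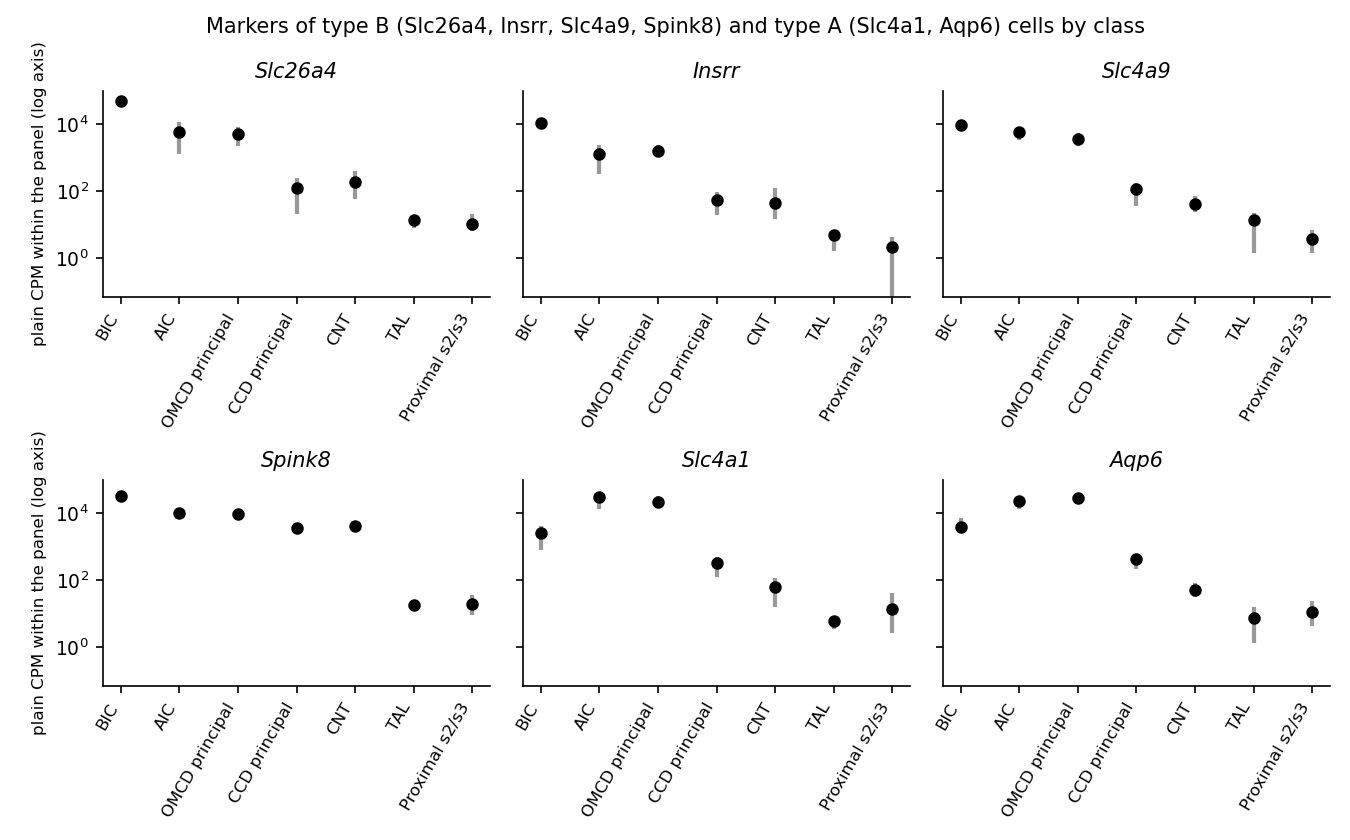
Plain CPM on a log axis (vertical) of 4 type B markers and 2 type A markers in 7 cell classes (horizontal). Points are means over 6 libraries and grey lines run from the lowest to the highest library, and leave the axis where a library was at 0. Slc26a4 and Insrr stand highest in BIC, and Slc4a1 and Aqp6 in AIC and OMCD principal.

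The other markers were less separate. Slc4a9 was at 9596 ± 1763 CPM in type B cells and at 5770 ± 1539 CPM in AIC, a ratio of 1.66. Spink8, a Kazal-type protease inhibitor gene, was at 34150 ± 5065 CPM in type B cells, and a small class the authors call mystery cells had nearly as much (ratio 1.09). After thinning to 500 counts, a Spink8 count was kept by 99.7% of type B cells, 95.3% of OMCD principal, 85.9% of AIC, 74.8% of CNT (connecting tubule) and 70.2% of CCD principal (cortical collecting duct) cells, so detection of this gene is shared with the neighbouring classes. In TAL cells the thinned share was 0.757% (100% in type B and 2.55% in TAL unthinned, median depths 1588.5 and 1501.5 counts). For Slc26a4 the thinned shares were 99.7% in type B, 12.9% in AIC and 0.684% in TAL cells (99.8%, 14.7% and 1.80% unthinned).

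The 15 genes with the largest ratio of type B cells to all other cells began with Slc26a4 (243-fold), Insrr (189-fold) and Cyp1a1 (118-fold). Cyp1a1 encodes a cytochrome P450 that aryl hydrocarbon receptor ligands induce. It had a count in 45.8% of type B cells, at 663.4 ± 237.0 CPM, which was 3.76 times the level in AIC. Then came Slc4a9 (57.9-fold), the proton pump subunit genes Atp6v1g3 (54.3-fold) and Atp6v1c2 (49.3-fold), and Trpc5 (52.3-fold), a cation channel gene. Lower ratios were found for Spink8, Guca2a (29.2-fold, the guanylin gene), Igfbp5 (21.6-fold, a binding protein of insulin-like growth factors), Fbxo32 (15.4-fold, a ubiquitin ligase subunit gene) and Rhbg (14.2-fold, an ammonia channel gene). The list closed with Cxcr4 (10.6-fold), Dkk3 (8.97-fold) and Sprr1a (8.83-fold), each of which was higher in some other class. Only 5 genes of at least 50 CPM were at 2 or more times the level of every other class: Slc26a4, Insrr, Cyp1a1, Fbxo32 and Trpc5. The pump and ammonia genes were shared with AIC, where Atp6v1g3 was at 53210 ± 6169 CPM against 80689 ± 10598 CPM in type B cells.

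Type B cells were not uniform. Slc4a1, the type A exchanger gene, had no count in 515 of the 626 cells, 1 to 9 counts in 25 cells and 10 or more in 86 cells. The 86 cells held 34714 CPM of Slc26a4, 7248 CPM of Insrr and 14003 CPM of Slc4a1, so both exchanger genes were present in them. In the 515 cells without Slc4a1, Slc26a4 was at 54772 CPM and Insrr at 12035 CPM. The 86 cells were also deeper, with a median of 2112.5 counts against 1503, and whether they were single cells was not tested. Slc4a1 counts were found in 0.946% of TAL cells, 4.39% of CNT cells and 8.41% of CCD principal cells. The 17.7% of type B cells was above each of these shares, but much nearer to CCD principal than to TAL. Median depths were 1588.5 counts per cell in type B, 1501.5 in TAL, 1819.5 in CNT and 1290 in CCD principal cells.

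The share of type B cells with a Slc4a1 count differed between libraries. With vehicle it was 26.7%, 12.6% and 24.5% (libraries 1, 3 and 5), against 8.79%, 13.0% and 16.8% with furosemide (libraries 2, 4 and 6), so the groups overlapped. The ratio of Slc26a4 to Slc4a1 CPM was 11.2, 22.5 and 13.9 with vehicle, and 67.5, 26.7 and 22.1 with furosemide. Library 2 had the highest ratio and the lowest share. Aqp6, an intracellular aquaporin gene of type A cells, had a count in 49.8% of type B cells, and library 1 stood above the rest at 7096 plain CPM.

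S100g, a calcium-binding protein gene of the connecting tubule, also spread widely. A count was found in 93.6% of type B, 59.0% of TAL and 57.9% of Proximal s2/s3 cells (85.0%, 31.7% and 29.7% thinned). CNT held this gene at 392658 plain CPM, and whether the type B counts came from the cells themselves was not tested. In type B cells thinned to 500 counts the S100g median was 4 counts, its quartiles 1 and 8, its 10th percentile 0 and its highest value 195. For Slc26a4 the median was 24 counts, the quartiles 18 and 31, the 10th percentile 13 and the highest value 86. A second clustering in the annotation gave 609 of the 626 cells the name BIC, 15 the name AIC and 2 the name CNT sub1. Its cluster AIC is not the authors' class AIC. It held no cell of that class, but 241 OMCD principal cells. The 15 cells named AIC there held 41824 CPM of Slc26a4, 1103 CPM of Slc4a1, no count of Aqp6 and 367.8 CPM of S100g. The 609 others held 50903, 2596, 4095 and 16371 CPM of these 4 genes. The 15 cells thus had few type A counts, and differed from the 609 in their low S100g and lack of Aqp6. Their other type B markers lay on both sides, with Insrr at 14397 against 11024 CPM, Slc4a9 at 14554 against 9619 CPM and Spink8 at 14449 against 34148 CPM.

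A further 37 cells outside the class held Slc26a4 at levels far above the rest of theirs. Of the cells called AIC by the authors, 34 fell in CNT sub1 of the second clustering and 3 in BIC. The 34 held 17371 CPM of Slc26a4, 3462 CPM of Insrr and 276153 CPM of S100g, at a median of 3087.5 counts per cell. The other 303 AIC cells held 539.1 CPM of Slc26a4. Slc4a9 went the other way, at 2924 CPM in the 34 cells against 6699 CPM in the 303, and 9619 CPM in the 609 type B cells. These 37 of 340 AIC cells held 93.5% of the Slc26a4 counts of that class.

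Type B cells as a share of all cells were 3.31%, 2.86% and 2.66% in vehicle libraries 1, 3 and 5 (exact binomial 95% interval of each within 2.17% to 3.90%), which gave 2.95% ± 0.329 (SD, n = 3). They were 2.98%, 2.25% and 2.98% in furosemide libraries 2, 4 and 6 (within 1.84% to 3.65%), which gave 2.74% ± 0.421. The groups overlapped and the log2 ratio was -0.10 (exact two-sided permutation p = 0.6, where 3 against 3 libraries cannot go below 0.1). The intervals cover counting error only. With edgeR on the cell numbers of all 15 classes, the log2 change was -0.11 ± 0.28 (SE, adjusted p = 0.802).

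The denominator bears on this share, since the authors brought both treatments to the same number of cells and TAL cells were fewer with furosemide. With TAL left out, type B cells were 3.86% ± 0.439 of vehicle and 3.15% ± 0.416 of furosemide libraries (log2 ratio -0.29, exact permutation p = 0.1, the smallest possible). Here every furosemide library lay below every vehicle library. CNT cells and the authors' DCT2 cells stayed in this denominator. Their numbers were higher with furosemide (log2 change 0.82 and 1.06, edgeR adjusted p = 0.0181 and 0.00852). The part of these classes in the lower type B share was not tested. Of AIC and BIC cells together, type B cells were 67.7% ± 2.66 and 63.2% ± 7.85 (exact permutation p = 0.4). With OMCD principal cells added to that denominator the direction was the opposite, at 46.0% ± 2.59 and 47.8% ± 3.58 (log2 ratio 0.057, exact permutation p = 0.6). Without furosemide library 4 the log2 ratio over all cells was 0.018, so the direction of the main share rests on that library.

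**Figure D2:**
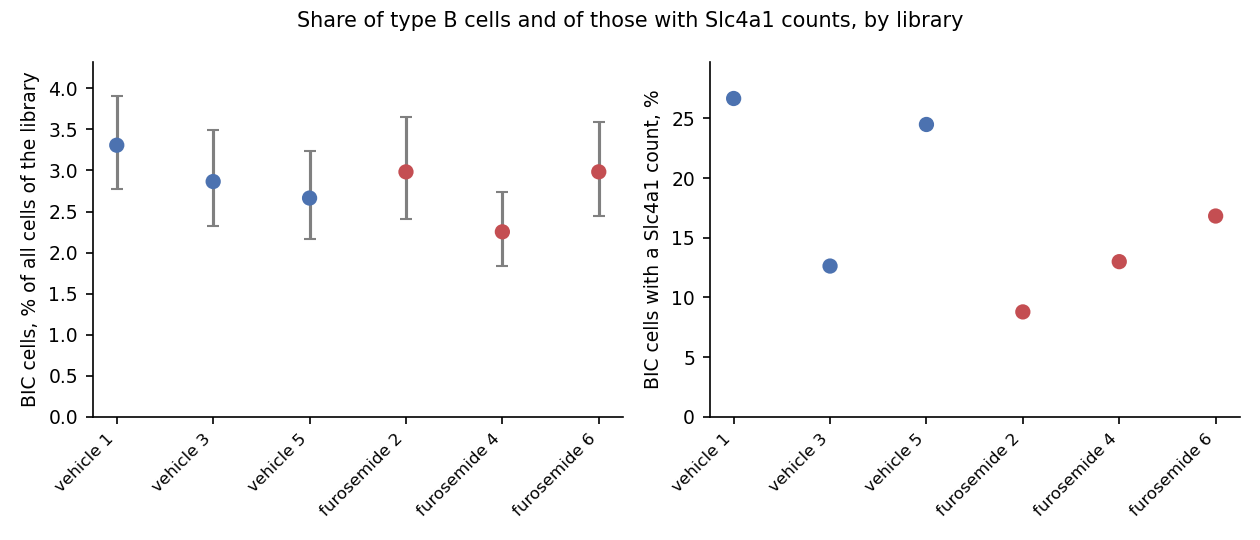
Left, type B cells as a percentage of all cells in each library, with exact binomial 95% intervals as bars. Right, the percentage of type B cells with a Slc4a1 count, which runs from 8.79% in furosemide library 2 to 26.7% in vehicle library 1; colours mark vehicle (blue) and furosemide (red).

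The series title asks how proximal and distal parts of the nephron adapt to furosemide. Counts were summed over the type B cells of each library, and 245 genes passed the filter on low counts. Of these, 1 gene passed edgeR's quasi-likelihood test at an adjusted p under 0.05, or 0.408% of the genes tested. That gene was Timp3, which encodes a matrix-bound inhibitor of metalloproteinases, including the shedding enzymes of the ADAM family. Without adjustment, 18 genes were higher and 13 lower with furosemide at p under 0.05. All 3 furosemide libraries lay above all 3 vehicle libraries for 27 genes (11.0%) and below them for 24 genes (9.80%). The median log2 change of the 245 genes was 0.01.

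Timp3 fell with furosemide. In libraries 1, 3 and 5 (vehicle) it was at 801.5, 727.2 and 844.0 TMM-scaled CPM, and in libraries 2, 4 and 6 (furosemide) at 243.7, 312.2 and 222.2 CPM. The same library order holds for all values below. The vehicle libraries were close together, and the highest furosemide library was far below the lowest of them. The log2 change was -1.60 ± 0.19 (SE; edgeR adjusted p = 0.00416), a 3.03-fold decrease. These levels rest on 181, 120 and 130 counts with vehicle and 39, 59 and 36 counts with furosemide.

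Both the number of cells with Timp3 and the sum were lower. A Timp3 count was found in 44.4%, 43.2% and 42.9% of type B cells with vehicle, and in 27.5%, 33.0% and 23.4% with furosemide. After thinning each cell to 500 counts, which left out 4 vehicle and 7 furosemide cells, the shares were 21.6%, 22.1% and 23.2% against 7.78%, 14.3% and 6.80%. In the authors' Immune class, which had few Timp3 counts, 1.49% to 5.45% of cells per library had a count (1.33% to 4.55% thinned, library medians of 573 to 1007 counts per cell against 1446 to 1870 in type B cells). The furosemide libraries were between these shares and those of the vehicle libraries.

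Timp3 was counted in many kidney cells, so the other classes were set beside the type B cells. It was tested in 14 classes, with a negative log2 change in 11 and a positive one in 3. The values in the 13 other classes ran from -0.84 to 0.15. DCT was the other class in which it passed, with 1174 and 698.0 mean plain CPM and a log2 change of -0.66 (edgeR adjusted p = 0.0404). In the Thin Limb it was -0.84 without passing (adjusted p = 0.124), in OMCD principal -0.61 (0.351) and in TAL 0.11 (0.767), where the mean was 816.4 CPM with vehicle and 817.1 CPM with furosemide. Type B cells with vehicle were at the level of TAL cells, and those with furosemide had the lowest mean of any class in which the gene was tested.

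**Figure D3:**
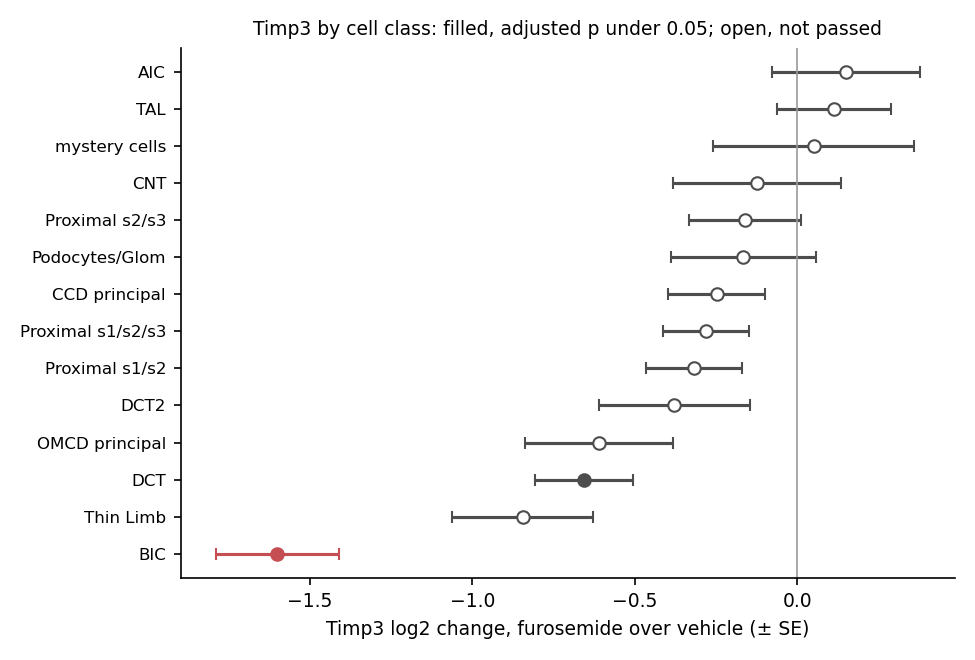
Log2 change of Timp3 with furosemide (horizontal axis, bars are SE) in the 14 classes in which it was tested; type B cells in red. The value in BIC, -1.60, lies outside the range of the other classes, -0.84 to 0.15.

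The difference between classes was tested with the library as a block. Against AIC, the treatment effect differed for 1 of 257 genes (0.389%), again Timp3, whose log2 change was lower by 1.82 ± 0.23 in type B cells (edgeR adjusted p = 0.0150). In AIC Timp3 was at 498.9, 462.2 and 508.0 plain CPM with vehicle and at 345.5, 600.4 and 531.2 with furosemide. The AIC sums rest on only 22 to 52 Timp3 counts per library. This difference lost its call when any single library but furosemide library 2 was left out (adjusted p up to 0.229) and when cells were thinned (0.101).

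Against CCD principal, the cortical principal cells, the effect differed for 3 of 289 genes (1.04%), which were Kl, Timp3 and Spp1. For Timp3 the difference was -1.27 ± 0.21 (edgeR adjusted p = 0.0383), with a log2 change of -0.25 in the principal cells. Kl, the Klotho gene, was at 333.3, 405.0 and 337.8 plain CPM in type B cells with vehicle and at 233.1, 304.4 and 340.4 with furosemide, while principal cells had means of 817.6 and 2006 CPM (difference -1.45 ± 0.23, adjusted p = 0.0383). Spp1, the osteopontin gene, was at 71673, 77537 and 76287 CPM in type B cells with vehicle and at 86504, 83374 and 90885 with furosemide, while principal cells had means of 22608 and 15440 CPM (difference 0.88 ± 0.16, adjusted p = 0.0472). The Spp1 log2 change was also positive in AIC (0.34), OMCD principal (0.19), CNT (0.40), TAL (0.55) and DCT (0.69). It was negative in CCD principal (-0.51), Thin Limb (-0.90), Podocytes/Glom (-1.13) and Immune (-0.014). In type B cells alone the Spp1 libraries did not overlap but the gene did not pass (log2 change 0.29 ± 0.09, adjusted p = 0.183), nor did Kl. With cells thinned none of the 3 was called, and of the 6 fits that left out 1 library none called Timp3.

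The OMCD principal class held markers of both type A and principal cells. Of its 373 cells, the second clustering named 241 AIC and 132 AIC sub2, so its name as a principal class is not settled. Aqp6 was at 28454 and Slc4a1 at 22082 plain CPM, beside Hsd11b2 at 44441 and Fxyd4 at 41386 CPM. Against this class, the test found no gene of 275 (0%). Without adjustment 23 genes had a p under 0.05, and limma-voom with the same block found 0 and 24. The Timp3 difference was -1.05 ± 0.27 (edgeR adjusted p = 0.322). A difference between type B cells and that class in Timp3 was therefore not shown. Other genes with a small p in these comparisons did not pass. Edn1, the endothelin-1 gene, differed by -1.48 ± 0.32 from AIC (adjusted p = 0.144), by -2.11 ± 0.47 from OMCD principal (0.174) and by -1.58 ± 0.37 from CCD principal (0.122). Slc26a4 differed by 2.16 ± 0.42 from CCD principal (0.0575), whose means were 203.9 CPM with vehicle and 46.9 CPM with furosemide. Only 50 of the 1225 CCD principal cells had a Slc26a4 count, the highest 66, and the type B log2 change was 0.15. The gene marks the type B class, so its counts in CCD principal are those left after the classes were drawn.

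Anion exchange is the defining work of these cells, and no gene of it passed. Of 16 listed genes the panel held 5 and 3 were tested, with a median log2 change of -0.23 beside 0.01 over all genes. Slc26a4 was at 44607, 51361 and 49152 CPM with vehicle and at 55223, 52827 and 52832 CPM with furosemide. The groups did not overlap, as for 11.0% of the genes tested, but the change was small (log2 0.15 ± 0.09, edgeR adjusted p = 0.562), which is 1.11-fold. In plain CPM the groups overlapped, since vehicle library 3 was at 52802 and furosemide library 6 at 50244, and with library size as the only scaling the log2 change was 0.073. The authors' classes were drawn on genes that include this one.

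Slc4a9 was at 11067, 9000 and 10920 CPM with vehicle and at 8856, 10431 and 7184 CPM with furosemide. These values overlapped (log2 change -0.23 ± 0.17, edgeR adjusted p = 0.602). Slc4a1 was at 3972, 2285 and 3545 CPM with vehicle and at 818.7, 1979 and 2395 CPM with furosemide, and library 6 lay within the vehicle range (log2 change -0.92 ± 0.37, adjusted p = 0.318). In plain CPM it lay below, at 2277 against 2349 in vehicle library 3, so the scaling decides whether the Slc4a1 groups overlap. Slc4a8, a sodium-driven bicarbonate exchanger gene known to work beside pendrin, had a count in only 4.95% of type B cells and was not tested. Slc4a3, an exchanger gene outside the list and named after its values were seen, was at 269.6 ± 29.0 and 209.6 ± 8.03 CPM without passing (adjusted p = 0.513).

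Genes of the proton pump and of ammonia transport had positive log2 changes throughout with TMM scaling, without passing. The panel held 7 of 13 listed genes and 6 were tested. Their log2 changes were all above 0 with a median of 0.25, as were 127 of all 245 changes tested. The libraries of 3 did not overlap, all higher with furosemide, as for 11.0% of all genes tested. Atp6v1g3, a subunit of the pump's cytosolic part, was at 71727, 68342 and 72419 CPM with vehicle and at 103283, 81474 and 89840 CPM with furosemide (log2 change 0.37 ± 0.10, edgeR adjusted p = 0.126). Every furosemide library was above every vehicle library, and library 2 was the highest.

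Rhbg, a basolateral ammonia channel gene, was at 28630, 28405 and 26462 CPM with vehicle and at 36123, 32918 and 38161 CPM with furosemide (log2 change 0.36 ± 0.10, edgeR adjusted p = 0.130). Atp4a, the catalytic subunit gene of the gastric type of proton-potassium pump, was at 1612, 1933 and 1993 CPM with vehicle and at 3950, 2683 and 3999 CPM with furosemide (0.94 ± 0.20, adjusted p = 0.0647). For both genes the groups were apart. Atp4a was tested in 10 classes and passed in none. Its log2 change was positive in 6, among them OMCD principal (1.02), CCD principal (0.99) and TAL (0.81), and negative in 4, which were DCT (-0.50, edgeR adjusted p = 0.0582), Proximal s2/s3 (-0.46), Thin Limb (-0.38) and CNT (-0.0046).

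The other 3 pump and ammonia genes overlapped. Atp6v1c2, a further pump subunit gene, was at 26109 ± 2015 CPM with vehicle and 27049 ± 1898 CPM with furosemide (edgeR adjusted p = 0.873). Rhcg, the apical ammonia channel gene, was at 18544 ± 1819 and 19214 ± 1188 CPM (adjusted p = 0.893). Atp6ap2, the gene of a pump accessory protein known as the prorenin receptor, was at 19667 ± 1119 and 21754 ± 5659 CPM (adjusted p = 0.737). With library size as the only scaling the log2 changes of Atp6v1c2 and Rhcg were -0.027 and -0.024, so the direction of these 2 is not fixed.

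**Figure D4:**
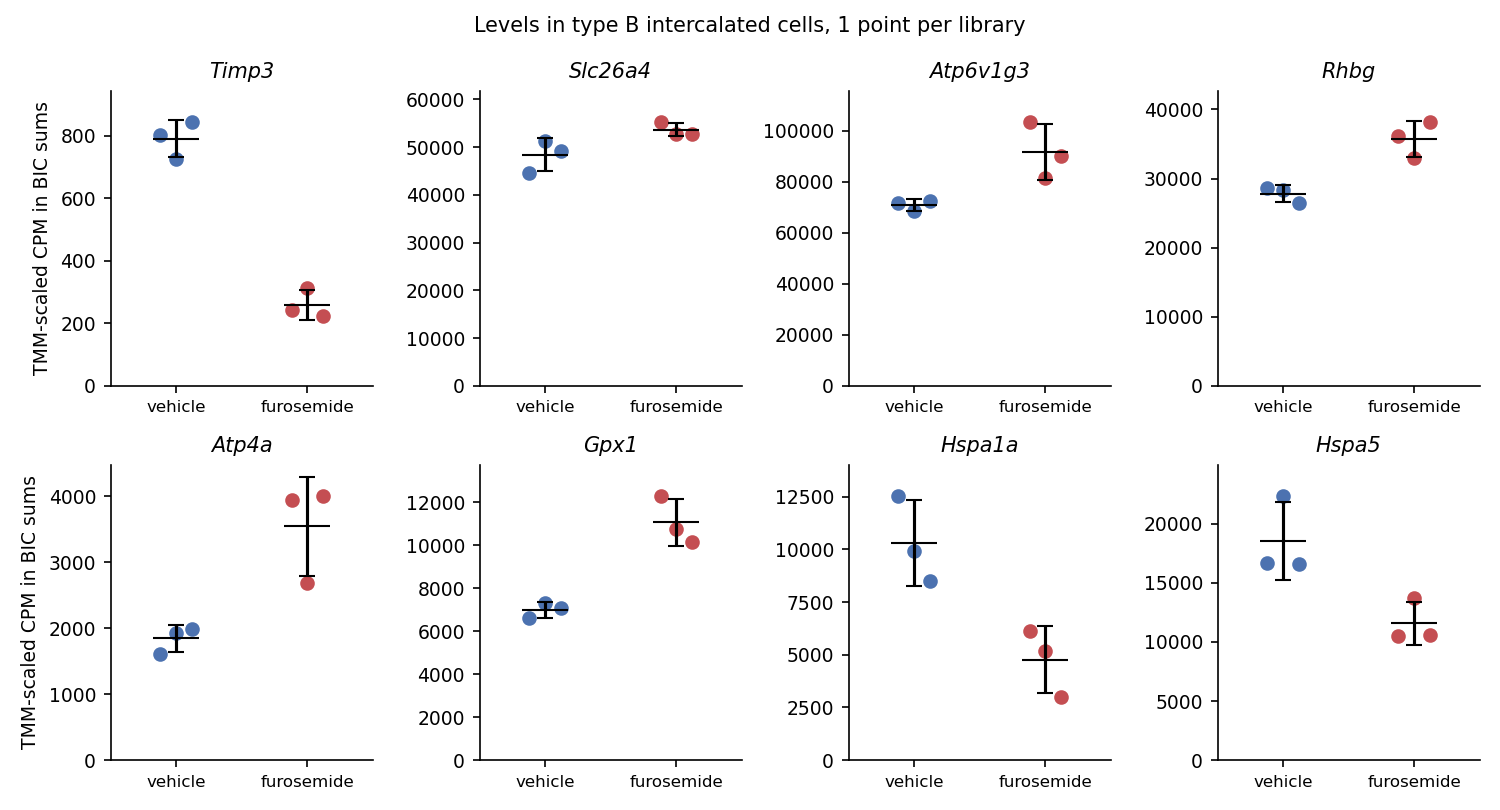
TMM-scaled CPM (vertical axes, from 0) of 8 genes in the type B sums, 1 point per library with mean ± SD as bars. Timp3 passed the test, and for the other 7 genes the libraries of both groups are apart in this scaling without an adjusted p under 0.05. The 8 genes are a selection. Of all 245 genes tested, the libraries were apart for 11.0% in the higher and 9.80% in the lower direction.

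The panel held 9 of 10 listed genes for chloride transport and the sodium pump, of which 8 were tested. None passed, and their median log2 change was 0.05. Fxyd2, the gene of the sodium pump's gamma subunit, was at 2475, 2660 and 2142 CPM with vehicle and at 3262, 2747 and 3148 CPM with furosemide (log2 change 0.33 ± 0.16, edgeR adjusted p = 0.452). Its libraries were apart in the higher direction. Bsnd, the barttin gene, was at 3918 ± 184.0 and 3472 ± 532.7 CPM (adjusted p = 0.654). Slc12a2, the gene of the widespread form of the cotransporter that furosemide also blocks, was at 137.9 ± 17.7 and 80.5 ± 26.7 CPM, on 10 to 30 counts per library (log2 change -0.76 ± 0.35, adjusted p = 0.442). Cftr had no count in type B cells.

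Aldosterone acts on these cells through the mineralocorticoid receptor, and the sodium channel and aldosterone list was the best covered. All 13 of its genes in the panel (of 16 listed) were tested, 8 with a positive and 5 with a negative log2 change, the median was 0.02 and none passed. Nr3c2, the receptor gene, was at 538.0 ± 50.7 and 521.8 ± 114.5 CPM (log2 change -0.04 ± 0.20, edgeR adjusted p = 0.939). Hsd11b2, whose enzyme shields the receptor from glucocorticoids, was at 632.9 ± 130.1 and 638.3 ± 251.5 CPM (adjusted p = 0.991). That gene had a count in only 26.4% of type B cells. Its mean there was 633.4 plain CPM, far below the 100064 CPM in CCD principal and 64770 CPM in CNT. Whether these counts came from the type B cells themselves was not tested. Scnn1a, the alpha subunit gene of the epithelial sodium channel, was counted in 98.2% of type B cells and was at 5483 ± 859.9 and 5769 ± 1655 CPM (adjusted p = 0.914). Sgk1, a kinase gene that aldosterone induces, was at 7666, 8806 and 7894 CPM with vehicle and at 7468, 7499 and 6012 CPM with furosemide. Its libraries were apart in the lower direction without passing (log2 change -0.22 ± 0.15, adjusted p = 0.570).

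Insulin and IGF genes did not pass either. Of 20 listed insulin and IGF genes 11 were in the panel and 3 were tested, with a median log2 change of 0.11 and none called. Insrr was at 11195, 9515 and 11056 CPM with vehicle and at 11556, 13051 and 9647 CPM with furosemide, which overlapped (log2 change 0.11 ± 0.15, edgeR adjusted p = 0.757). Igfbp5 was at 6592 ± 968.3 and 7303 ± 783.9 CPM (adjusted p = 0.692). Insr, the insulin receptor gene, was at 109.4 ± 5.64 and 80.0 ± 16.5 CPM on 10 to 26 counts per library (adjusted p = 0.607). Igf1r was counted in 3.67% of type B cells, and Birc5 and Mki67, markers of dividing cells, in 1.44% and 0.160%, so none of these 3 was tested.

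Hormone and local mediator receptors had 5 of 21 listed genes in the panel. The 2 tested, Ptger3 (a prostaglandin E2 receptor gene) and Casr (the calcium-sensing receptor gene), overlapped at 1700 ± 192.9 and 1758 ± 219.1 CPM and at 179.2 ± 21.3 and 199.0 ± 45.8 CPM. Growth factor and cell cycle genes had 6 tested members, 5 of them with a negative log2 change, a median of -0.28 and no call. Hbegf, the gene of an epidermal growth factor receptor ligand, was at 6558, 6515 and 5453 CPM with vehicle and at 4800, 3652 and 3216 CPM with furosemide. Every furosemide library was lower (log2 change -0.67 ± 0.18, edgeR adjusted p = 0.126). In CNT the Hbegf change was -0.62 and passed (adjusted p = 0.0433), while the proximal, DCT2, Immune and mystery cell classes had positive changes. None of the 12 listed identity and Notch genes, Foxi1 among them, was in the panel.

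The list of immediate early and heat shock genes had 5 tested members and no call. Their log2 changes were all negative, with a median of -0.16, while 127 of all 245 genes tested had a positive one. The libraries of 1 did not overlap and were lower with furosemide, as for 9.80% of all genes tested. Hspa1a, an inducible heat shock protein gene, was at 12515, 9927 and 8492 CPM with vehicle and at 6106, 5202 and 3012 CPM with furosemide (log2 change -1.11 ± 0.26, edgeR adjusted p = 0.0815). The groups were apart. Hspa1a was also lower in other classes, and passed in DCT (log2 change -1.20, edgeR adjusted p = 0.0113). Its log2 change was positive in CCD principal (0.059) and Thin Limb (0.34) and negative in the other classes tested. Hspa1a has a near-identical neighbour, Hspa1b, and how the authors' counting split them is not given in the sources used here. Fos, Jun, Egr1 and Atf3 overlapped between groups, with log2 changes from -0.20 to -0.12.

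Hspa5, the main chaperone gene of the endoplasmic reticulum, lay outside the lists and entered by its small p. It was at 16633, 22302 and 16607 CPM with vehicle and at 10475, 13680 and 10560 CPM with furosemide (log2 change -0.68 ± 0.17, edgeR adjusted p = 0.0914). All furosemide libraries were lower. With vehicle the mean of type B cells, 18977 plain CPM, was above that of every other class. With furosemide it was 11289 CPM, below the Thin Limb at 14338 CPM and Podocytes/Glom at 11695 CPM.

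Injury genes gave 6 tested members of 12 in the panel, with a median of 0.22 and no call, and Lcn2, a tubular injury marker, was counted in 0.958% of type B cells. In the list for oxidants, iron and energy, 9 of 12 panel genes were tested, 4 were apart in the higher and 1 in the lower direction (11.0% and 9.80% over all genes tested), and none passed. Gpx1, a glutathione peroxidase gene, was at 6603, 7315 and 7102 CPM with vehicle and at 12281, 10780 and 10159 CPM with furosemide, with groups well apart (log2 change 0.66 ± 0.13, edgeR adjusted p = 0.0647). Tfrc, the transferrin receptor gene, was at 968.5 ± 474.5 and 974.1 ± 306.1 CPM (adjusted p = 0.993). Ckb, a creatine kinase gene, was at 557.1 ± 79.4 and 738.0 ± 135.4 CPM (adjusted p = 0.452).

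**Figure D5:**
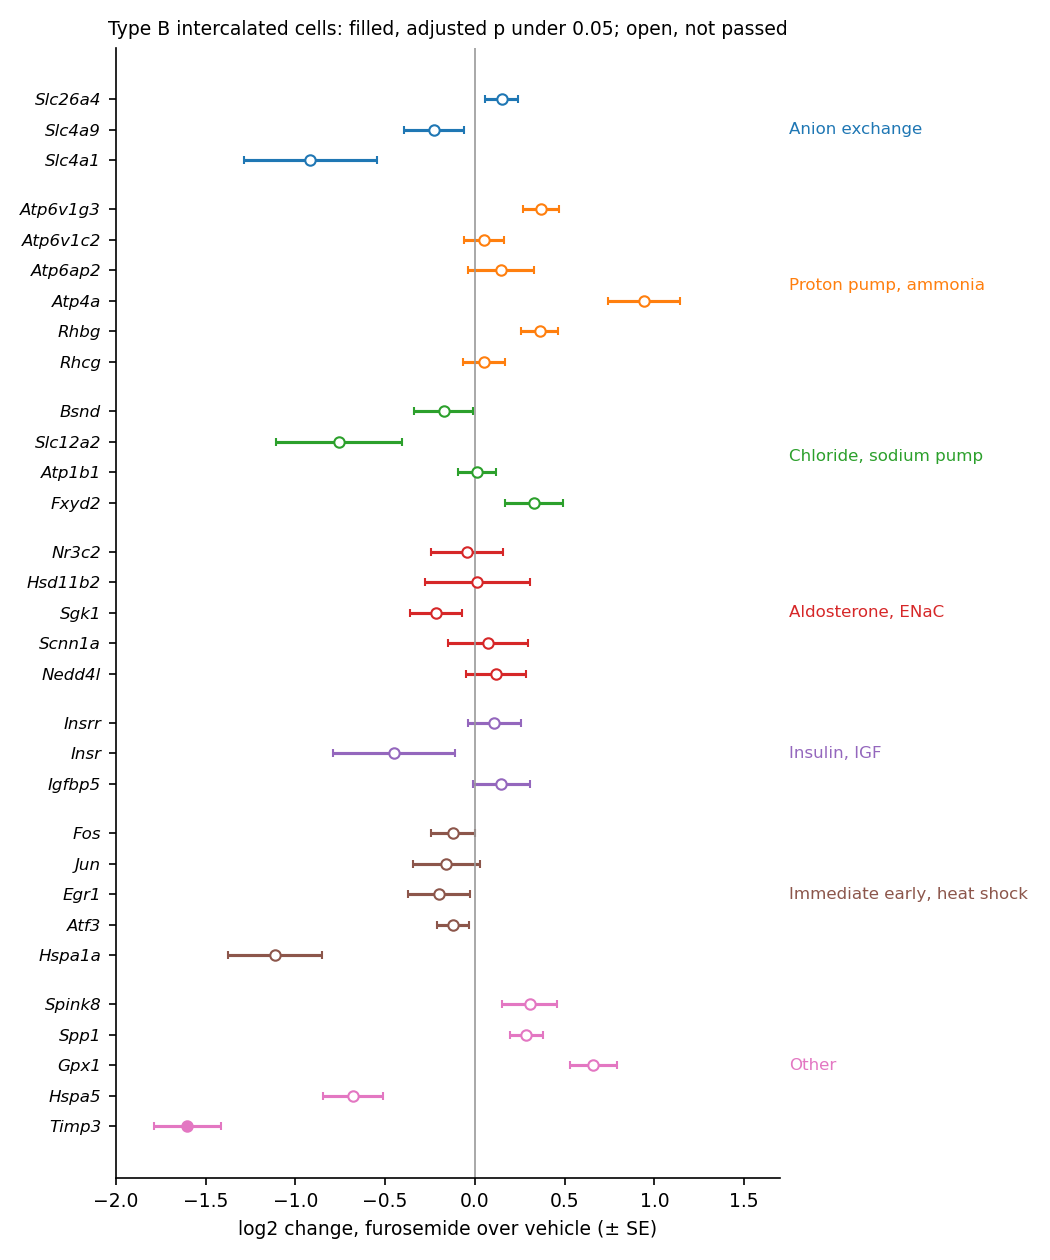
Log2 change with furosemide (horizontal axis, bars are SE) of selected genes in type B cells, grouped by role on the vertical axis. Timp3 (filled) is the gene that passed. All 6 proton pump and ammonia genes are above 0 and all 5 immediate early and heat shock genes below 0, without passing. Of all 245 genes tested, 127 are above 0. With library size as the only scaling, Atp6v1c2 is at -0.027 and Rhcg at -0.024.

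The remaining genes with the smallest p-values did not pass and are partly genes of other cells. Calb1, a calcium-binding protein gene of the connecting tubule, was at 363.1, 496.9 and 486.9 CPM with vehicle and at 1031, 746.2 and 1543 CPM with furosemide (log2 change 1.30 ± 0.28, edgeR adjusted p = 0.0647). Its log2 change was positive in all 14 classes tested, from 0.034 to 2.81 in the others. In connecting tubule cells (CNT) it rose, with means of 13955 and 44089 CPM (log2 change 1.82, adjusted p = 0.0122); the part of their RNA in the type B value was not tested. Pck1, a gluconeogenesis gene of proximal cells, was at 230.3, 345.4 and 266.2 CPM with vehicle and at 112.5, 100.6 and 135.8 CPM with furosemide (-1.26 ± 0.27, adjusted p = 0.0647). Trp53inp1, a p53-induced stress gene, was at 405.3 ± 44.5 and 673.3 ± 66.6 CPM, with groups apart (0.73 ± 0.17, adjusted p = 0.0815).

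Markers of other cell types within type B cells were summed per library for 9 lists. The 2 type A markers summed to 5713 to 11248 plain CPM with vehicle and to 3862 to 5605 CPM with furosemide (log2 ratio -0.66). The 7 proximal markers of the panel summed to 2355 to 4471 CPM and to 1271 to 2095 CPM (log2 ratio -1.01), most of it Kap (mean 2267 CPM, an androgen-regulated proximal gene), while Gatm and Fabp1 were at 0. For both lists the groups were apart (exact two-sided permutation p = 0.1, adjusted over 9 lists p = 0.45). Both sums moved in the direction of Timp3, and their part in its change was not tested. Without the 111 type B cells that held Slc4a1, the Timp3 log2 change was -1.83 (edgeR adjusted p = 0.00197). Connecting tubule markers summed to 15538 to 24593 and 9175 to 21066 CPM, distal convoluted tubule markers to 211.8 to 541.6 and 140.9 to 347.1 CPM with Pvalb at 0, thick limb markers to 3356 to 7288 and 3533 to 9421 CPM, and principal markers to 1433 to 2051 and 1488 to 2376 CPM, all overlapping. Podocyte, immune and stromal markers stayed under 70 CPM in every library, with Nphs1, Col1a1 and Ren1 at 0.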

How the data were processed

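Per the labels' protocols, RNA of single cells was captured with BD Rhapsody cartridges, for a targeted and a whole-transcriptome assay. Bowtie2 2.2.9 was used, per the submitters' processing notes. For genome build, counting and barcode correction, values are not given in the sources used here. Counts in the authors' deposited table are whole numbers per cell for 456 genes; their assay is not stated, nor if they are reads or molecules. Per the deposited file's name, the authors had removed doublets and evened cell numbers, so no doublet caller was run. Cell classes, library numbers and treatments came from the deposited annotation.

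Counts of BIC cells were summed per library and fitted with edgeR 4.0.16 in R 4.3.3 (TMM, filterByExpr by group with its minimum count of 10, estimateDisp, robust glmQLFit, glmQLFTest), 3 against 3 libraries. A call is a Benjamini-Hochberg adjusted p under 0.05 over all genes tested. SE is the size of the log2 change divided by the square root of F. Differences between classes were class-by-treatment interactions with the library as a block. Shares and marker sums were compared by exact permutation over the 20 assignments. Plain CPM is scaled by the sum's total alone.

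Named genes were all called ones, the 6 with the smallest p per direction, 35 core genes where present (23 were in the panel, 18 tested), the 15 with the largest ratio to other cells, and 4 per direction for each interaction; not each is printed, and some are not reported here. Exceptions are named. Members, lists and rules were chosen with earlier results of these data known. The edgeR steps of the type B fit were tried on simulated counts, and the other fits and tests were not. Alternatives included DESeq2 1.42.0, voom of limma 3.58.1, other scaling and filters, thinned cells, other cell sets and each library left out. No column of per-sample values was left unused.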

Additional observations from a re-analysis of the deposited data

Results flagged for a closer look

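The treatment effect differed between type B cells and a neighbouring class for 4 gene and class pairs, by the test of the difference itself. Timp3 had a log2 change lower by 1.82 in type B cells than in AIC, that is a difference of -1.82, and a difference of -1.27 from CCD principal. Kl differed by -1.45 from CCD principal and Spp1 by 0.877 from CCD principal, where the Spp1 log2 change was -0.51 against 0.29 in type B cells. All 4 passed at an adjusted p under 0.05 with edgeR, and none of the 4 was called once cells were thinned to 500 counts.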

How the results depend on the processing

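Beside 1 called gene in type B cells, there were 4 with no filter beyond 1 count, 6 with DESeq2 (which left Timp3 without an adjusted p by its independent filtering), 5 with DESeq2 without that filtering, 2 with thinned cells, 2 in cells that both clusterings name BIC, 5 without cells that hold a Slc4a1 count, and 1 to 6 with 1 library left out. Timp3 was called in each of the 16 other settings that gave it an adjusted p, with log2 changes from -1.83 to -1.51 and adjusted p up to 0.0329. The 6 genes without furosemide library 4 were Timp3, Atp4a, Calb1, Cxcl2, Atp6v1g3 and Gpx1, and the 2 without vehicle library 5 were Edn1 and Timp3. Against AIC the count was 2 without the library block, 0 with thinned cells and 0 to 1 with 1 library left out. Against OMCD principal it was 1 with no filter, 1 without the library block, 2 with thinned cells and 0 to 1 with 1 library left out. Against CCD principal, beside 3, it was 4 with no filter and with DESeq2 size factors, 0 with thinned cells and 0 to 1 with 1 library left out. The log2 ratio of the share of type B cells ran from -0.17 to 0.018 with 1 library left out. Signs turned for some named genes, none of which passed. With library size alone, log2 changes were -0.027 (Atp6v1c2), -0.024 (Rhcg), -0.061 (Hsd11b2) and -0.064 (Tfrc). Tfrc was also at -0.0070 with no filter and -0.10 without cells that hold Slc4a1, and Hsd11b2 at -0.041 with limma-voom, -0.14 without the top 5% of cells and -0.26 in cells that both clusterings name BIC. With 1 library left out the ranges were -0.58 to 0.11 (Aqp6, above 0 without vehicle library 1), -0.025 to 0.12 (Rhcg), -0.32 to 0.29 (Hsd11b2), -0.24 to 0.079 (Nr3c2), -0.0072 to 0.10 (Atp6v1c2), -0.18 to 0.24 (Scnn1a), -0.0030 to 0.21 (Insrr) and -0.30 to 0.40 (Tfrc). The cause of these changes was not tested.

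No paired analysis was possible because the library numbers of the files could not be joined to the replicate numbers of the labels, so the planned replicate block was not run. Alternatives with shared barcodes, the Slc4a1 cells, unfiltered DESeq2, the OMCD principal comparison, single marker lists and left-out libraries for the marker sums were chosen after seeing the data. With 91 to 135 cells per library, genes under about 10 counts in a sum were not tested.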

Other observations

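Other genes of the response to unfolded protein, picked with their values known, did not pass, and nothing is drawn from them as a group. Xbp1, a transcription factor gene of that response, was at 3494, 3473 and 3428 TMM-scaled CPM with vehicle (libraries 1, 3 and 5) and at 2556, 2747 and 2574 CPM with furosemide (libraries 2, 4 and 6) (log2 change -0.40 ± 0.14, edgeR adjusted p = 0.247). The libraries of each group lay close together and the groups were apart. Atf6, a membrane-bound sensor gene of the same response, was at 549.1, 587.9 and 506.4 CPM and at 450.0, 460.4 and 339.5 CPM, also apart (-0.39 ± 0.18, adjusted p = 0.442). Atf4, Ern1 and Eif2ak3, further genes of the response, overlapped, with log2 changes of -0.17, -0.43 and -0.11.

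Slc2a4, the gene of the insulin-regulated glucose transporter GLUT4, had its highest mean of all classes in type B cells, 1.27 times that of AIC. It was at 2834, 2703 and 2850 CPM with vehicle and at 3162, 3514 and 3524 CPM with furosemide, apart without passing (log2 change 0.28 ± 0.14, edgeR adjusted p = 0.472).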
